A study of Homo sapiens with 12 samples.

Results

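The 10 genes described here are the cadherins CDH1 and CDH2, the epithelial adhesion molecule EPCAM, the mesenchymal proteins VIM and FN1, and the transcription factors SNAI1, SNAI2, TWIST1, ZEB1 and ZEB2. They were taken by gene symbol from a table of 60591 genes, and all 10 were among the 19108 genes with enough reads to be tested. RNA was sequenced from PC9 and H1650, established lines of EGFR-mutant non-small cell lung cancer. Cells were collected at T0 (0.1% DMSO, 0 h) or after 36 h with 10 μM erlotinib, a first-generation EGFR inhibitor, or 0.1 μM osimertinib, a third-generation one. Lines and treatments made 6 groups of 2 replicates, or 12 libraries. No vehicle library of 36 h was analysed here, so that drug and time in culture cannot be told apart in any change from T0. The T0 libraries of a line served both of its drug comparisons.

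The epithelial-mesenchymal transition (EMT) is the process by which epithelial cells loosen their junctions and take on a motile, mesenchymal form. Its core transcription factors, of the SNAIL, TWIST and ZEB families, bind E-box motifs and repress epithelial genes such as CDH1. In carcinomas the transition is often partial, so that cells express epithelial and mesenchymal genes together, and it is known as one of the states linked to tolerance of EGFR inhibitors.

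Library totals lay between 17961765 and 26346187 reads on genes. Levels are given as normalized CPM, counts scaled to the size of each library, and 3 reads, the number that a count of 0 allows, correspond to 0.116 to 0.168 CPM. Only counting error enters this limit. Mitochondrial genes took 4.36% to 5.36% of the counts at T0 and 5.77% to 7.20% in the drug-treated libraries, and the part of this difference in the results was not tested. All 8 epithelial markers examined (EPCAM, CDH1, KRT7, KRT8, KRT18, KRT19, CLDN4 and ELF3) averaged at least 1 CPM in each group. Of 8 fibroblast markers, COL1A1 alone reached that level in PC9, and COL1A1 and COL3A1 did in H1650. Of 7 leukocyte markers, 2 reached it in each group, and these 2 were CSF1R and ITGAM in PC9 and CSF1R and CD14 in H1650. Their list summed to 5.29 to 6.81 CPM in PC9 at T0, 9.49 to 10.6 with erlotinib and 22.4 to 23.8 with osimertinib, and to 54.7 to 59.3, 21.6 to 22.1 and 26.8 to 29.2 CPM in H1650, and their part in the results was not tested. Of 6 lineage markers of lung adenocarcinoma, FOXA1 averaged at least 1 CPM in each group and NAPSA did in treated PC9, while NKX2-1 had 0 reads in PC9 at T0 and in both treated groups of H1650. Their list summed to 41.5 to 43.8 CPM in PC9 at T0, 41.3 to 44.3 with erlotinib and 48.7 to 50.4 with osimertinib, and to 3.40 to 3.96, 4.38 to 4.70 and 4.68 to 5.78 CPM in H1650. In bulk RNA, a lower number of cells of one kind and less RNA per cell cannot be told apart.

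CDH1 encodes E-cadherin, the calcium-dependent adhesion molecule of epithelial adherens junctions. In PC9 it measured 185 and 194 normalized CPM at T0, 219 and 230 with erlotinib, and 251 and 279 with osimertinib. In H1650 it measured 1209.6 and 1214 CPM at T0, 1026 and 1125 with erlotinib, and 1422 and 1328 with osimertinib. Within each line the 3 groups did not overlap, and every H1650 library lay above every PC9 library. In PC9, CDH1 rose with erlotinib by 0.24 ± 0.07 on the log2 scale (SE, adjusted p = 0.00384) and with osimertinib by 0.48 ± 0.07 (adjusted p = 6.03e-07). The erlotinib call was lost without PC9 T0 replicate 1 (adjusted p = 0.0726) and without PC9 erlotinib replicate 2 (adjusted p = 0.0501). In H1650, CDH1 differed from T0 by -0.17 ± 0.07 with erlotinib (adjusted p = 0.0515), just short of the threshold of 0.05. The erlotinib change passed under DESeq2 (adjusted p = 0.0218), under RLE normalization (0.0371), without the filter on low counts (0.0154), and without either PC9 osimertinib replicate (0.0358 and 0.0368) or H1650 erlotinib replicate 2 (0.0238). With osimertinib the H1650 change was 0.18 ± 0.07 (adjusted p = 0.0398), a call that was not made under DESeq2 (adjusted p = 0.0541) or RLE normalization (0.0713). That call was also lost without either H1650 T0 replicate (adjusted p = 0.152 and 0.134), without H1650 osimertinib replicate 1 (adjusted p = 0.302) and without either PC9 T0 replicate (adjusted p = 0.0606 and 0.0614).

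EPCAM encodes a homophilic adhesion molecule of epithelial cells that is widely used as a carcinoma marker. In PC9 it measured 537 and 541 CPM at T0, 266 and 288 with erlotinib, and 273 and 307 with osimertinib. In H1650 the values were 199 and 214 CPM at T0, 237 and 247 with erlotinib, and 317 and 306 with osimertinib. The T0 libraries were thus the highest in PC9 and the lowest in H1650, with no overlap with the treated ones in either line. The log2 change in PC9 was -0.96 ± 0.07 with erlotinib (adjusted p = 1.51e-13) and -0.89 ± 0.07 with osimertinib (adjusted p = 8.05e-13). In H1650 EPCAM rose by 0.23 ± 0.07 with erlotinib (adjusted p = 0.0110) and by 0.59 ± 0.07 with osimertinib (adjusted p = 4.59e-08). The H1650 erlotinib call was lost without T0 replicate 1 (adjusted p = 0.159) and without erlotinib replicate 2 (adjusted p = 0.0978). CDH1 and EPCAM, both epithelial, thus moved in opposite directions in PC9.

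CDH2 encodes N-cadherin, which replaces E-cadherin in the cadherin switch of EMT. It measured 16.8 and 20.3 CPM in PC9 at T0, 17.0 and 19.2 with erlotinib, and 21.9 and 24.8 with osimertinib. In H1650 it measured 1.17 and 1.31 CPM at T0, 0.464 and 0.186 with erlotinib, and 0.382 and 0.579 with osimertinib, from 4 to 34 reads per library. All PC9 libraries lay above all H1650 libraries. In PC9 the change with erlotinib was -0.04 ± 0.14 on the log2 scale (95% interval -0.33 to 0.26, adjusted p = 0.851), and the groups overlapped. With osimertinib CDH2 was called higher by 0.33 ± 0.14 (adjusted p = 0.0477), a call that was lost under DESeq2 (adjusted p = 0.187) and under RLE normalization (adjusted p = 0.0559), and without any 1 of 9 libraries. In H1650 CDH2 fell by 1.95 on the log2 scale with erlotinib (SE 0.42, adjusted p = 0.000325) and by 1.35 with osimertinib (SE 0.37, adjusted p = 0.00418). The latter call was lost without H1650 osimertinib replicate 1 (adjusted p = 0.0657).

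VIM encodes vimentin, the intermediate filament protein of mesenchymal cells. Its PC9 libraries held 17.4 and 20.6 CPM at T0, 2.24 and 2.93 with erlotinib, and 5.18 and 4.54 with osimertinib. Its H1650 libraries held 45.7 and 44.9 CPM at T0, 9.29 and 10.3 with erlotinib, and 16.5 and 14.6 with osimertinib. In both lines T0 was highest, osimertinib intermediate and erlotinib lowest, without overlap. VIM fell 7.29-fold with erlotinib in PC9 (log2 change -2.87 ± 0.16, adjusted p = 1.07e-16) and 3.89-fold with osimertinib (log2 change -1.96 ± 0.15, adjusted p = 2.87e-13). The falls in H1650 were 4.61-fold with erlotinib (log2 change -2.20 ± 0.13, adjusted p = 4.14e-15) and 2.92-fold with osimertinib (log2 change -1.54 ± 0.12, adjusted p = 6.67e-12). Of the 10 genes, only VIM was called in all 4 comparisons with T0 with 1 direction throughout. Exons of VIM share 641 bases with VIM-AS1 and 619 with AL133415.1 on the opposite strand. Opposite-strand genes also share 347 exon bases with CDH1 (AC099314.1), 136 with CDH2 (AC110015.1) and 141 with TWIST1 (AC003986.2), and whether the counting used strand is not given in the sources used here.

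FN1 encodes fibronectin, an extracellular matrix glycoprotein. In PC9 it measured 171 and 176 CPM at T0, 245 and 274 with erlotinib, and 615 and 654 with osimertinib. In H1650 it measured 849 and 801 CPM at T0, 407 and 427 with erlotinib, and 519.6 and 447 with osimertinib. The treated libraries lay above T0 in PC9 and below it in H1650. FN1 rose in PC9 by 0.58 ± 0.08 with erlotinib (log2, adjusted p = 5.28e-08) and by 1.87 ± 0.08 with osimertinib (adjusted p = 2.90e-20), a 3.66-fold increase. In H1650 it fell by 0.98 with erlotinib (SE 0.07, adjusted p = 2.20e-12) and by 0.77 with osimertinib (SE 0.07, adjusted p = 4.89e-10). The summed level of the 8 fibroblast markers in PC9 was 18.4 to 21.1 CPM at T0, 20.8 to 24.7 with erlotinib, which overlapped T0, and 37.8 to 45.9 with osimertinib. In PC9, COL3A1, DCN, LUM, PDGFRA and THY1 had 0 reads at T0. COL1A2, COL3A1, DCN, LUM and PDGFRA had 0 with erlotinib, and COL3A1 and PDGFRA had 0 with osimertinib. In H1650 that sum was 24.9 to 25.4 CPM at T0, 17.2 to 19.1 CPM with erlotinib and 33.3 to 35.5 CPM with osimertinib, and its part in the FN1 values was not tested.

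**Figure D1:**
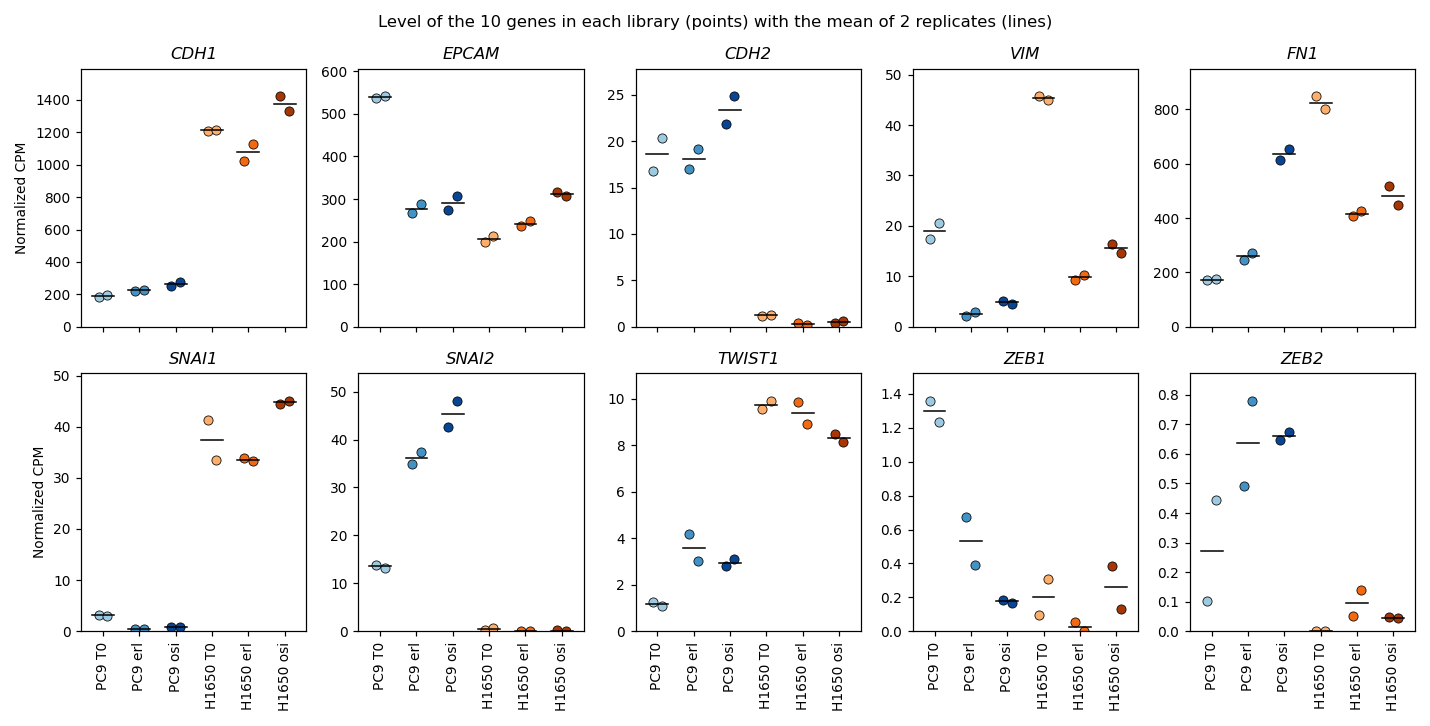
Normalized CPM (linear axes from 0, one scale per gene) of the 10 genes in the 12 libraries. Points are libraries and lines are means of 2 replicates in PC9 (blue) and H1650 (orange) at T0 and after 36 h with erlotinib (erl) or osimertinib (osi). VIM falls in both lines, FN1 and SNAI2 rise in PC9 and fall in H1650, and EPCAM does the reverse.

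The SNAIL factors SNAI1 and SNAI2 are zinc finger repressors of CDH1, and in PC9 they moved in opposite directions. SNAI1 measured 3.23 and 2.96 CPM in PC9 at T0, 0.358 and 0.468 with erlotinib, and 0.786 and 0.897 with osimertinib. SNAI2 measured 13.8 and 13.3 CPM at T0, 35.0 and 37.4 with erlotinib, and 42.5 and 48.2 with osimertinib. None of these groups overlapped with T0. SNAI1 fell 7.33-fold with erlotinib (log2 change -2.87 ± 0.29, adjusted p = 1.81e-10) and 3.68-fold with osimertinib (-1.88 ± 0.26, adjusted p = 1.51e-07). SNAI2 rose 2.68-fold with erlotinib (log2 change 1.42 ± 0.13, adjusted p = 1.39e-11) and 3.35-fold with osimertinib (1.74 ± 0.13, adjusted p = 8.89e-14). Per kilobase of gene length, the SNAI2 level was 2.22 and 2.33 times that of SNAI1 at T0, 50.7 and 41.5 times with erlotinib, and 28.1 and 27.9 times with osimertinib.

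In H1650 the balance was the other way, with SNAI1 high and SNAI2 near the limit of detection. SNAI1 measured 41.2 and 33.6 CPM at T0, 33.8 and 33.3 with erlotinib, and 44.5 and 45.1 with osimertinib. Its change was -0.15 ± 0.11 with erlotinib (log2, 95% interval -0.37 to 0.07, adjusted p = 0.287) and 0.26 ± 0.11 with osimertinib (95% interval 0.05 to 0.48, adjusted p = 0.0522), and neither passed the threshold. The osimertinib change passed in a fit of H1650 alone (adjusted p = 0.0357), without either PC9 erlotinib replicate (0.0455 and 0.0447) and without H1650 T0 replicate 1 (0.0152). SNAI2 had 7 and 19 reads at T0, 2 and 1 with erlotinib, and 3 and 2 with osimertinib. It was called lower with both drugs (adjusted p = 0.00104 and 0.00356), and the summed reads gave a level at T0 that was 7.48 times that with erlotinib (95% counting interval 2.29 to 38.6) and 4.77 times that with osimertinib (1.80 to 15.9). Without H1650 T0 replicate 2, which held 19 of the 26 reads at T0, neither SNAI2 call passed (adjusted p = 0.0720 and 0.184), and the osimertinib call was also lost without H1650 osimertinib replicate 2 (adjusted p = 0.0519).

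TWIST1 encodes a basic helix-loop-helix factor of mesoderm development and EMT. It measured 1.26 and 1.09 CPM in PC9 at T0, 4.17 and 3.01 with erlotinib, and 2.82 and 3.08 with osimertinib. In H1650 it measured 9.56 and 9.92 CPM at T0, 9.86 and 8.89 with erlotinib, and 8.50 and 8.15 with osimertinib. The treated PC9 libraries all lay above T0 but below every H1650 library. In PC9 TWIST1 rose 3.03-fold with erlotinib (log2 change 1.60 ± 0.26, adjusted p = 2.85e-06) and 2.50-fold with osimertinib (1.32 ± 0.28, adjusted p = 9.51e-05). In H1650 the changes were -0.06 ± 0.18 with erlotinib (95% interval -0.41 to 0.30, adjusted p = 0.846) and -0.23 ± 0.18 with osimertinib (-0.59 to 0.13, adjusted p = 0.344).

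ZEB1 and ZEB2 encode zinc finger homeobox repressors that form a double-negative loop with the microRNAs of the miR-200 family, which silence them and which they repress. The mature sequences of the family are shown, 5′ to 3′, with the seed (bases 2 to 8) in capitals, because the seed sets which sites each one can pair with. They are RefSeq entries on GRCh38.p14, all on the plus strand, at chr1:1167160-1167181, chr1:1167916-1167937, chr1:1169055-1169076, chr12:6963742-6963764 and chr12:6964155-6964176 in the order given.
miR-200b-3p: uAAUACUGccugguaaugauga
miR-200a-3p: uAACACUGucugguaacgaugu
miR-429: uAAUACUGucugguaaaaccgu
miR-200c-3p: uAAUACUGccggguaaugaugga
miR-141-3p: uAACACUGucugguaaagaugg
By seed, miR-200b-3p, miR-200c-3p and miR-429 form one group and miR-200a-3p and miR-141-3p the other, and the seeds differ at 1 base. The 7-base matches to these seeds were counted in 3′ UTRs of GENCODE 29 on GRCh38. The match to the first seed, CAGTATT, occurred 6 times in the 2549-base 3′ UTR of ZEB1 and 5 times in the 5370-base 3′ UTR of ZEB2. Of 19132 genes, 16% held at least 1 such match. At least as many as ZEB1 were held by 3 genes (0.0157%), and at least as many as ZEB2 by 7 (0.0366%), each gene itself included. The match to the second seed, CAGTGTT, occurred 3 times in ZEB1 and 4 times in ZEB2, against 18.3% of genes with at least 1. At least as many were held by 1.05% and 0.303% of genes, and the length of the 3′ UTR was not allowed for. FN1 held 2 CAGTATT matches, SNAI2 held 1, and the other 6 members held 0 of either. One site of each kind per gene is shown with the match in capitals, at chr10:31527618-31527640 and chr10:31528031-31528053 (plus strand) for ZEB1 and at chr2:144389052-144389074 and chr2:144389236-144389258 (minus strand) for ZEB2, all in the 3′ UTR. A match is a description of these letters and not evidence of binding.
ZEB1 first seed: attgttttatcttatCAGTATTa
ZEB1 second seed: caaaatcatcagaatCAGTGTTt
ZEB2 first seed: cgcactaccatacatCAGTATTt
ZEB2 second seed: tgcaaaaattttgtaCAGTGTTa

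Both genes were near the limit of detection. ZEB1 had 27 and 25 reads in PC9 at T0, 15 and 10 with erlotinib, and 4 and 3 with osimertinib. In H1650 it had 2 and 8 reads at T0, 1 and 0 with erlotinib, and 8 and 3 with osimertinib. ZEB1 was therefore highest in untreated PC9, and the 3 PC9 groups did not overlap. ZEB1 passed the filter on low counts only with the help of its reads in untreated PC9, which favoured a lower call in treated PC9. The log2 change in PC9 was -2.83 ± 0.70 with osimertinib (adjusted p = 0.000725). With erlotinib it was -1.29 ± 0.57 (adjusted p = 0.0503), just short of the threshold, and it passed under RLE normalization (adjusted p = 0.0463) and in a fit of PC9 alone (0.0196). In H1650 ZEB1 was not called with either drug (adjusted p = 0.0835 and 0.838). The summed reads at T0 were 8.63 times those with erlotinib after scaling, with a 95% counting interval of 1.23 to 374. Exons of ZEB1 share 366 bases with ZEB1-AS1 on the opposite strand.

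ZEB2 had 2 and 9 reads in PC9 at T0, 11 and 20 with erlotinib, and 14 and 12 with osimertinib. Its log2 change was 1.21 ± 0.71 with erlotinib (95% interval -0.24 to 2.66, adjusted p = 0.141) and 1.25 ± 0.72 with osimertinib (-0.23 to 2.73, adjusted p = 0.136), so that a difference was not detectable at this depth. In H1650 ZEB2 had 0 reads in both T0 libraries, 1 and 3 with erlotinib, and 1 and 1 with osimertinib, all at or under 3 reads, and no fold is given. Its exons share 1299 bases with ZEB2-AS1 on the opposite strand.

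Of the genes of the miR-200 family, the 5 that were tested (MIR200A, MIR200B, MIR429, MIR200C and the host gene MIR200CHG) were called higher in PC9 with both drugs, where 32.6% of all tested genes were called higher with each. MIR200C had reads only in treated PC9 and passed the filter on low counts through those libraries alone. MIR200A and MIR200B had most of their reads there and passed that filter only with the help of treated PC9, so that their higher calls below were favoured too. The filter thus favoured a higher call, so that the 5 calls cannot be compared with that share. These reads come from the long transcripts that carry the hairpins, so that they do not measure the mature microRNAs, and genes of one cluster share a transcript. MIR200B had 16 and 7 reads in PC9 at T0, 70 and 68 with erlotinib, and 102 and 56 with osimertinib. MIR200A had 14 and 8 reads at T0, 67 and 56 with erlotinib, and 56 and 34 with osimertinib. MIR429, the last of the chromosome 1 cluster, had 11 and 12 reads at T0, 74 and 56 with erlotinib, and 60 and 50 with osimertinib. Each was called higher, by 2.32 ± 0.44 (MIR200B), 2.22 ± 0.47 (MIR200A) and 2.24 ± 0.44 (MIR429) on the log2 scale with erlotinib (adjusted p = 3.25e-05, 0.000121 and 5.08e-05). With osimertinib the changes were 2.77 ± 0.43 (MIR200B), 2.03 ± 0.48 (MIR200A) and 2.27 ± 0.44 (MIR429), with adjusted p = 1.88e-06, 0.000444 and 4.87e-05. MIR141, on chromosome 12, had 0 reads in both T0 libraries, 1 and 2 with erlotinib, and 10 and 11 with osimertinib, and was below the filter for testing. Its neighbour MIR200C had 0 reads in both T0 libraries, 8 and 12 with erlotinib, and 12 and 8 with osimertinib, which is at least 2.76-fold and at least 3.35-fold higher against 3 reads per library. Its host transcript MIR200CHG rose 6.25-fold with erlotinib (adjusted p = 6.05e-06) and 3.48-fold with osimertinib (adjusted p = 0.00182).

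In H1650, MIR200B, MIR429 and MIR200C had 0 reads in all 6 libraries and MIR200A had 1 read in a single erlotinib library, which at 3 reads allows up to 0.155 CPM in the shallowest of them. MIR200CHG had 4 and 12 reads in H1650 at T0, 14 and 8 with erlotinib, and 33 and 20 with osimertinib, and was called higher with osimertinib (log2 change 1.85 ± 0.51, adjusted p = 0.00397) but not with erlotinib (0.68 ± 0.58, adjusted p = 0.390). With each library left out, the genes of this family called in H1650 with osimertinib ranged from 0 to 1, so that the MIR200CHG call was not kept throughout. In PC9 at T0, MIR200CHG had 10 and 8 reads. H1650 had near-absent reads on the chromosome 1 cluster, CDH1 above every PC9 library and ZEB1 below untreated PC9, and whether these are linked was not tested.

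**Figure D2:**
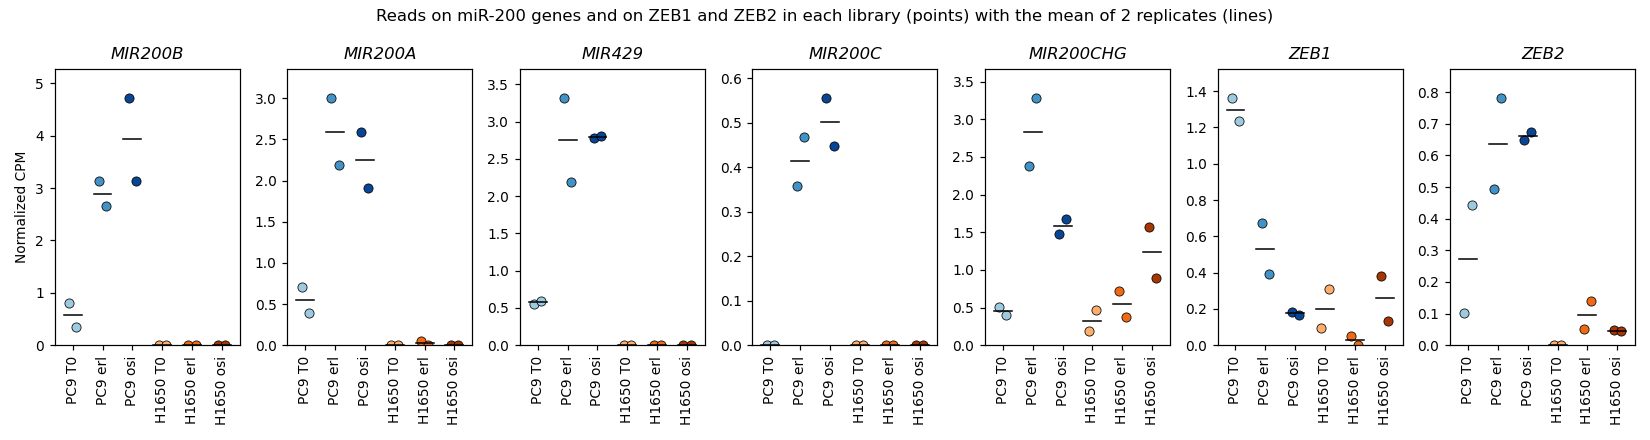
Normalized CPM (linear axes from 0, one scale per gene) of genes of the miR-200 family and of ZEB1 and ZEB2 in the 12 libraries. Points are libraries and lines are means of 2 replicates. MIR200B, MIR200A and MIR429 are higher in the treated than in the T0 libraries of PC9 and are at or near 0 in H1650. In treated PC9, ZEB1 is lower than at T0 (called with osimertinib only), and ZEB2 has a higher mean without a call. Both rest on few reads.

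Promoter sequence was searched on both strands for the E-box CAGGTG, bound by SNAIL and ZEB factors, the cyclic AMP response element TGACGTCA and the AP-1 motif TGANTCA, in the 250 bases before each RefSeq start on GRCh38.p14. Windows were at hand for VIM, FN1, ZEB1, ZEB2 and CDH2 among the members, and for MIR200CHG. Of 35116 windows, 17.5% held the E-box, 1.65% the cyclic AMP element and 6.57% the AP-1 motif. The windows of FN1 and MIR200CHG are shown around their match, in capitals, since FN1 had the largest called rise of the members in PC9 with osimertinib and MIR200CHG carries the locus of miR-200c. They lie at chr2:215436234-215436261 (minus strand) and chr12:6963157-6963182 (plus strand, on which the E-box reads in reverse). Of the 7 windows of ZEB1, 1 held 1 match to the E-box and another held 2, and the second window of CDH2 held 1 match to the AP-1 motif. No match was found for VIM or ZEB2, and whether any factor bound there was not measured.
FN1 cyclic AMP element: cagtcccccgTGACGTCAcccggagccc
MIR200CHG E-box: caggaggacaCACCTGtgcgcagggt

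Counted over the 10 genes, 7 were called in PC9 with erlotinib (4 higher, 3 lower), where 61.7% of all tested genes were called (32.6% higher, 29.1% lower). With osimertinib 9 were called in PC9 (5 higher, 4 lower), against 61.3% of all tested genes (32.6% higher, 28.7% lower). In H1650, 5 were called with erlotinib (1 higher, 4 lower), against 36.4% (17.9% higher, 18.5% lower). With osimertinib 6 were called in H1650 (2 higher, 4 lower), against 35.6% (17.6% higher, 18% lower). These counts are of 10 genes only, and with such backgrounds a call by itself does not set a member apart from the other genes tested.

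**Figure D3:**
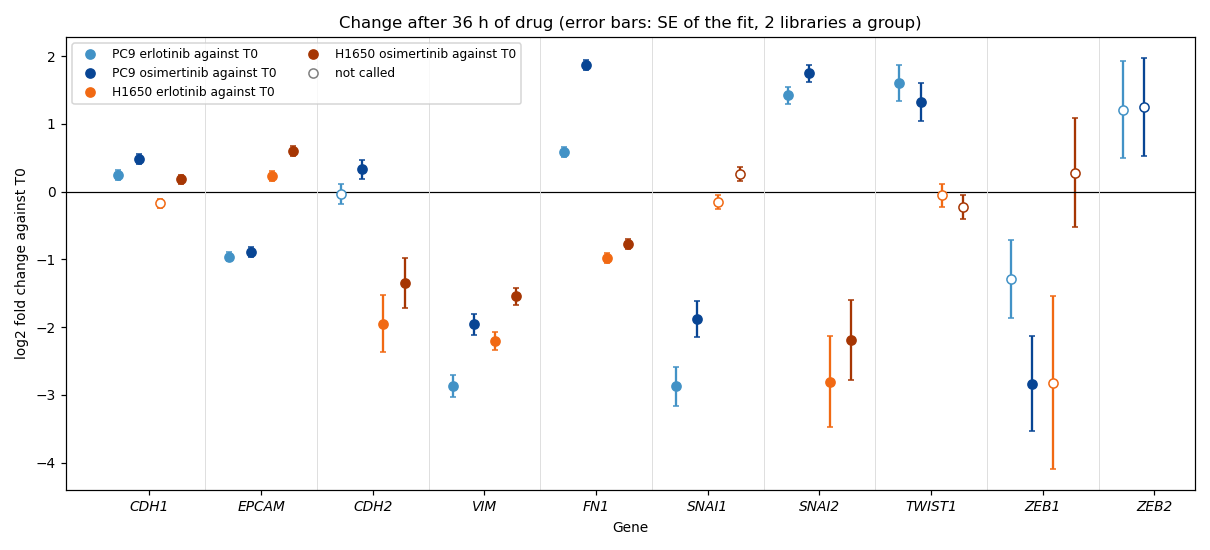
Log2 fold change against T0 (vertical axis) for each gene after 36 h with each drug in PC9 (blue) and H1650 (orange). Error bars are the SE of the fit on 2 libraries a group, and open symbols did not pass an adjusted p of 0.05. ZEB2 in H1650 is not drawn because no library exceeded 3 reads, and the ZEB1 and SNAI2 values of H1650 rest on few reads. VIM is negative in all 4 comparisons.

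The change with each drug was then compared between the lines by subtracting the PC9 change from that in H1650. With erlotinib 8 of the 10 genes differed (3 higher and 5 lower in H1650), where 40.8% of all tested genes did (21.1% higher, 19.7% lower). With osimertinib 8 did (3 higher, 5 lower), against 41.9% (21.5% higher, 20.4% lower). The sign of the change itself turned between the lines for FN1, SNAI2 and EPCAM, which were called in opposite directions with both drugs. For FN1 the difference was -1.56 ± 0.11 with erlotinib (adjusted p = 5.57e-14) and -2.64 ± 0.11 with osimertinib (adjusted p = 1.28e-19). For EPCAM it was 1.19 ± 0.10 with erlotinib (adjusted p = 1.18e-11) and 1.49 ± 0.10 with osimertinib (adjusted p = 4.82e-14). The difference for SNAI1 was 2.72 ± 0.31 with erlotinib (adjusted p = 9.85e-09) and 2.14 ± 0.28 with osimertinib (adjusted p = 1.27e-07). VIM fell further in PC9 than in H1650 with erlotinib by 0.66 ± 0.21 (adjusted p = 0.0123), a call lost without either PC9 T0 replicate 2, PC9 erlotinib replicate 1 or H1650 erlotinib replicate 2 (adjusted p = 0.0745, 0.114 and 0.0513). With osimertinib the VIM difference was 0.41 ± 0.20 (95% interval 0.02 to 0.81, adjusted p = 0.0899), which passed without PC9 T0 replicate 1 (0.0485).

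At T0 all 10 genes differed between H1650 and PC9, 5 higher and 5 lower in H1650, where 69.4% of all tested genes differed (35.8% higher, 33.7% lower). CDH1 was 6.39-fold higher in H1650 (log2 difference 2.68 ± 0.07, adjusted p = 5.30e-25), SNAI1 by 3.59 ± 0.14 on the same scale (adjusted p = 1.04e-20), TWIST1 8.28-fold (adjusted p = 2.87e-13), FN1 4.75-fold (adjusted p = 1.80e-22) and VIM 2.38-fold (adjusted p = 6.16e-11). The 5 genes that were higher in H1650 thus included an epithelial cadherin together with both mesenchymal proteins. CDH2 was 14.9-fold lower in H1650 (adjusted p = 1.26e-17), SNAI2 24.4-fold (adjusted p = 1.63e-18), EPCAM 2.61-fold (adjusted p = 1.22e-17) and ZEB1 6.08-fold (adjusted p = 0.000753). The filter on low counts, which ZEB1 passed only with its reads in untreated PC9, favoured the ZEB1 call. ZEB2, with 0 reads in H1650, was at least 2.15-fold lower against 3 reads per library (adjusted p = 0.00347). In PC9 at T0 it had 2 and 9 reads, so that this bound rests mainly on replicate 2. ZEB2 passed the filter on low counts only through treated PC9.

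Under the drugs some of these gaps closed and others widened. With erlotinib all 10 genes still differed, 5 higher and 5 lower in H1650, against 72% of all tested genes (36.7% higher, 35.3% lower). With osimertinib 8 did (4 higher, 4 lower), against 71.5% (36.6% higher, 34.9% lower). FN1, higher in H1650 at T0, was 1.61-fold higher there with erlotinib (adjusted p = 9.64e-10) and 1.31-fold lower with osimertinib (adjusted p = 2.11e-05). EPCAM was 1.14-fold lower in H1650 with erlotinib (adjusted p = 0.0166), a call that was lost without PC9 erlotinib replicate 2 (adjusted p = 0.173) or H1650 erlotinib replicate 1 (adjusted p = 0.113). With osimertinib EPCAM differed between the lines by 0.11 ± 0.07 (95% interval -0.04 to 0.25, adjusted p = 0.184), which passed without PC9 osimertinib replicate 2 (0.0428). ZEB2 had 4 reads in H1650 and 31 in PC9 with erlotinib, which put PC9 at 6.61 times H1650 (95% counting interval 2.34 to 25.8), and it was called lower in H1650 (adjusted p = 0.00650), but not under DESeq2 (adjusted p = 0.0545) or without PC9 erlotinib replicate 2 (adjusted p = 0.0724) or H1650 erlotinib replicate 1 (adjusted p = 0.0781). The filter on low counts, which ZEB2 passed only through treated PC9, favoured that ZEB2 call. SNAI1 was 79.4-fold higher in H1650 with erlotinib (adjusted p = 9.39e-24) and 53.2-fold with osimertinib (adjusted p = 9.25e-24). For SNAI2 the summed reads put PC9 at 494 times H1650 with erlotinib (95% counting interval 169 to 2398) and at 391 times with osimertinib (167 to 1207).

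**Figure D4:**
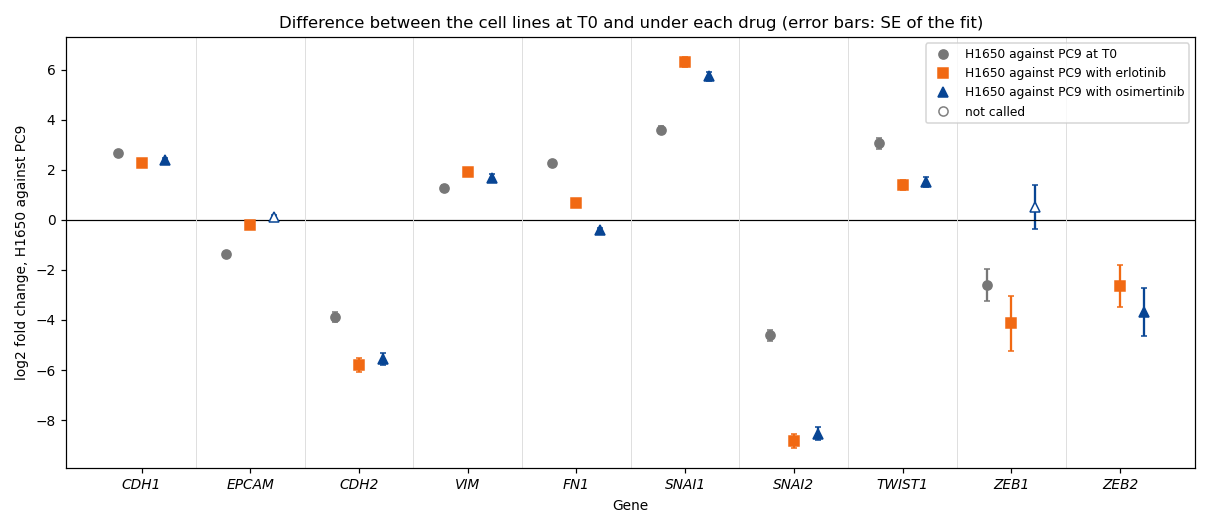
Log2 fold change of H1650 against PC9 (vertical axis) for each gene at T0, with erlotinib and with osimertinib. Error bars are the SE of the fit, open symbols did not pass an adjusted p of 0.05, and ZEB2 at T0 is not drawn because H1650 had 0 reads. The ZEB1, ZEB2 and SNAI2 values under the drugs rest on few H1650 reads. FN1 moves from positive at T0 to negative with osimertinib, and the SNAI1 and SNAI2 values lie farther from 0 under the drugs than at T0.

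Between the drugs, whose doses differed (0.1 μM osimertinib, 10 μM erlotinib), 3 of the 10 genes differed in PC9, where 16.7% of all tested genes did (10.2% higher, 6.48% lower with osimertinib), and all 3 were higher with osimertinib. FN1 was 2.45-fold higher (log2 difference 1.29 ± 0.08, adjusted p = 9.05e-15), VIM 1.87-fold (0.91 ± 0.19, adjusted p = 0.000718) and CDH1 1.18-fold (0.24 ± 0.07, adjusted p = 0.0187). The CDH1 call was lost without PC9 erlotinib replicate 1 (adjusted p = 0.163) or PC9 osimertinib replicate 2 (adjusted p = 0.252). In a fit of PC9 alone, CDH2 (adjusted p = 0.0400) and SNAI2 (0.0260) were called higher with osimertinib as well. In H1650, 4 differed, against 8.98% of all tested genes (5.17% higher, 3.81% lower), again all higher with osimertinib. They were VIM (1.58-fold, adjusted p = 0.00116), CDH1 (1.28-fold, adjusted p = 0.000635), EPCAM (1.29-fold, adjusted p = 0.000632) and SNAI1 (1.33-fold, adjusted p = 0.00998). The SNAI1 call was lost without any 1 of the 4 drug-treated H1650 libraries (adjusted p from 0.0594 to 0.0751). FN1, at 0.21 on the log2 scale (adjusted p = 0.0715), passed without the filter on low counts (0.0187) and without H1650 osimertinib replicate 2 (0.0219). EPCAM did not differ detectably between the drugs in PC9 (0.06 ± 0.07, 95% interval -0.08 to 0.21, adjusted p = 0.621).

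Levels of different genes were compared as CPM per kilobase of the deposited gene length. In PC9 at T0 the order ran from EPCAM (222) and CDH1 (31.1) through FN1 (10.1), SNAI2 (4.12), CDH2 (4.01) and VIM (3.67) to SNAI1 (1.81), TWIST1 (0.587), ZEB1 (0.150) and ZEB2 (0.0110). In H1650 at T0 it ran from CDH1 (199) and EPCAM (85.0) through FN1 (47.9), SNAI1 (21.9), VIM (8.75) and TWIST1 (4.88) to CDH2 (0.267), SNAI2 (0.161) and ZEB1 (0.0232), with ZEB2 at 0 reads. The most abundant of the 5 transcription factors per kilobase was thus SNAI2 in PC9 and SNAI1 in H1650. In PC9 at T0 the SNAI2, CDH2 and VIM levels lay between 3.67 and 4.12, and VIM was the highest of them (7.12) when the longest transcript was used as the length. The ratio of CDH1 to CDH2 per kilobase was 7.25 to 9.81 in the 6 PC9 libraries and 703 to 4587 in the 6 H1650 libraries, where few CDH2 reads stand behind it.

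The genes whose log2 CPM ran most like that of a member over the 12 libraries were found among 10287 genes of at least 10 CPM. The points come from 2 cell lines and 6 groups, so that each r mixes the gap between the lines with the changes from T0. CDH1 ran most like PPP3CA (Pearson r = 0.998), SNAI1 like SULT2B1 (0.998), SNAI2 like HNRNPA1P33 (0.996), CDH2 like LAYN (0.994) and VIM like SSR1 (0.993). FN1 ran most like LIMK2 (0.984), ZEB2 like PIK3CA (0.974), EPCAM like CIAO2A (0.957) and ZEB1 like RPAP1 (0.949).

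The surrounding pathway was described with 9 further lists, of which 146 of 157 genes were tested. Of all tested genes, 61.7% were called in PC9 with erlotinib (32.6% higher, 29.1% lower), 61.3% with osimertinib (32.6% higher, 28.7% lower), 36.4% in H1650 with erlotinib (17.9% higher, 18.5% lower) and 35.6% with osimertinib (17.6% higher, 18% lower), and the shares of each list are given in the same order. Among partners of the cadherins in adherens junctions, 8 of 13 rose and 3 fell in PC9 with erlotinib, and 7 rose and 3 fell with osimertinib, whereas in H1650 3 rose and 5 fell with each drug (84.6%, 76.9%, 61.5% and 61.5% called). NECTIN4, a nectin that joins with cadherin junctions, rose in PC9 from 5.06 ± 0.25 CPM (SD, n = 2) to 19.4 ± 2.6 with erlotinib and 28.4 ± 0.1 with osimertinib. NECTIN1, another nectin, fell in PC9 from 70.2 ± 3.1 CPM to 21.4 ± 0.8 and 25.3 ± 0.7. CTNND1, the p120 catenin that stabilizes cadherins at the membrane, rose from 22.4 ± 0.4 to 44.7 ± 5.3 and 55.1 ± 5.7 CPM. VCL, the actin linker vinculin, fell in both lines, in H1650 from 361 ± 10 to 143 ± 13 and 169 ± 4 CPM. CDH3, or P-cadherin, fell in H1650 from 980.1 ± 4.0 to 579 ± 6 and 854 ± 35 CPM.

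Of 19 tight junction and polarity genes, 12 rose and 2 fell in PC9 with erlotinib and 14 rose and 1 fell with osimertinib, while 8 rose and 5 fell, and 7 rose and 5 fell, in H1650 (73.7%, 78.9%, 68.4% and 63.2% called, against 61.7%, 61.3%, 36.4% and 35.6% of all tested genes). TJP3, a scaffold of tight junctions, rose in PC9 from 6.37 ± 1.33 CPM to 52.1 ± 5.8 with erlotinib and 58.1 ± 0.7 with osimertinib, and CLDN3 from 9.87 ± 0.56 to 33.9 ± 4.4 and 52.6 ± 1.8. Of 11 desmosome genes, 2 rose and 4 fell in PC9 with erlotinib and 3 rose and 3 fell with osimertinib, and in H1650 0 rose and 6 fell, and 3 rose and 5 fell. The desmosome shares called were 54.5% in each PC9 comparison, below that of all tested genes, and 54.5% and 72.7% in H1650. DSG2, a desmosomal cadherin, fell in H1650 from 718 ± 22 CPM to 347 ± 9 and 426 ± 31. Among 21 epithelial identity factors and proteases, 12 rose with each drug in PC9 (4 and 5 fell), and 8 and 12 rose in H1650 (3 and 0 fell), or 76.2%, 81.0%, 52.4% and 57.1% called. ELF3, an epithelial ETS factor, rose in PC9 from 20.4 ± 1.1 CPM to 260.5 ± 3.8 and 312 ± 13, and MUC1, a membrane mucin, from 7.94 ± 0.75 to 79.2 ± 0.3 and 133 ± 3. MAL2, a protein of apical transport, fell in PC9 from 488 ± 11 CPM to 228 ± 15 and 187 ± 9, and ST14, the membrane protease matriptase, from 369 ± 17 to 209 ± 15 and 274 ± 3.

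Of 13 other EMT factors, 2 rose and 5 fell in PC9 with erlotinib and 3 rose and 5 fell with osimertinib, against 4 and 2, and 3 and 1, in H1650. The shares called were 53.8%, 61.5%, 46.2% and 30.8%, against 61.7%, 61.3%, 36.4% and 35.6% of all tested genes. SOX4 rose in PC9 from 53.3 ± 0.3 CPM to 344 ± 2 and 460.0 ± 1.2, and KLF8 from 52.7 ± 0.8 to 342 ± 7 and 387 ± 37. SOX9 fell in PC9 from 104 ± 9 CPM to 28.3 ± 1.2 and 34.4 ± 0.1. Among 18 cofactors and turnover factors of these repressors, 3 rose and 9 fell in PC9 with erlotinib and 2 rose and 8 fell with osimertinib, and in H1650 1 rose and 6 fell, and 0 rose and 4 fell (66.7%, 55.6%, 38.9% and 22.2% called). EZH2, the methyltransferase of Polycomb repression, fell in PC9 from 109 ± 1 CPM to 24.1 ± 1.7 and 25.1 ± 0.2. Of 18 genes of TGF-beta signalling, the pathway best known for inducing EMT, 7 rose and 4 fell in PC9 with erlotinib and 11 rose and 3 fell with osimertinib, against 2 and 6, and 4 and 5, in H1650 (61.1%, 77.8%, 44.4% and 50% called). TGFB2, a ligand, rose in PC9 from 48.8 ± 0.6 CPM to 191 ± 7 and 274 ± 14 and fell in H1650 from 31.1 ± 0.7 to 20.7 ± 1.8 and 20.6 ± 3.5. SKIL also rose in PC9, from 126 ± 8 CPM to 301 ± 18 and 387 ± 7. Other genes of the list fell in PC9, LTBP2 from 344 ± 2 CPM to 80.5 ± 1.9 and 154 ± 6, and BMP4 from 98.9 ± 2.9 to 50.6 ± 0.9 and 71.8 ± 3.2.

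The mesenchymal cytoskeleton and matrix list was called lower in H1650 in most of its 28 genes, with 2 higher and 19 lower with erlotinib and 3 higher and 17 lower with osimertinib, where 18.5% and 18% of all tested genes were called lower. The median log2 change of the list there was -0.62 and -0.43, where the median of all tested genes was 0.01 and 0. In PC9, 7 were higher and 15 lower with erlotinib and 11 higher and 11 lower with osimertinib, where 32.6% of all tested genes were higher with each drug and 29.1% and 28.7% lower. THBS1, the matrix protein thrombospondin, fell in H1650 from 1486 ± 14 CPM to 373 ± 41 and 432 ± 5. In PC9, TAGLN rose from 4.27 ± 0.52 CPM to 14.6 ± 1.0 and 30.8 ± 0.3 and CALD1 from 131 ± 10 to 333 ± 26 and 540.0 ± 8.6, both actin-binding proteins, whereas TNC, the matrix protein tenascin, fell from 5.71 ± 0.33 to 0.394 ± 0.050 and 0.368 ± 0.193. All of these genes passed an adjusted p of 0.05 with both drugs in the line named.

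**Figure D5:**
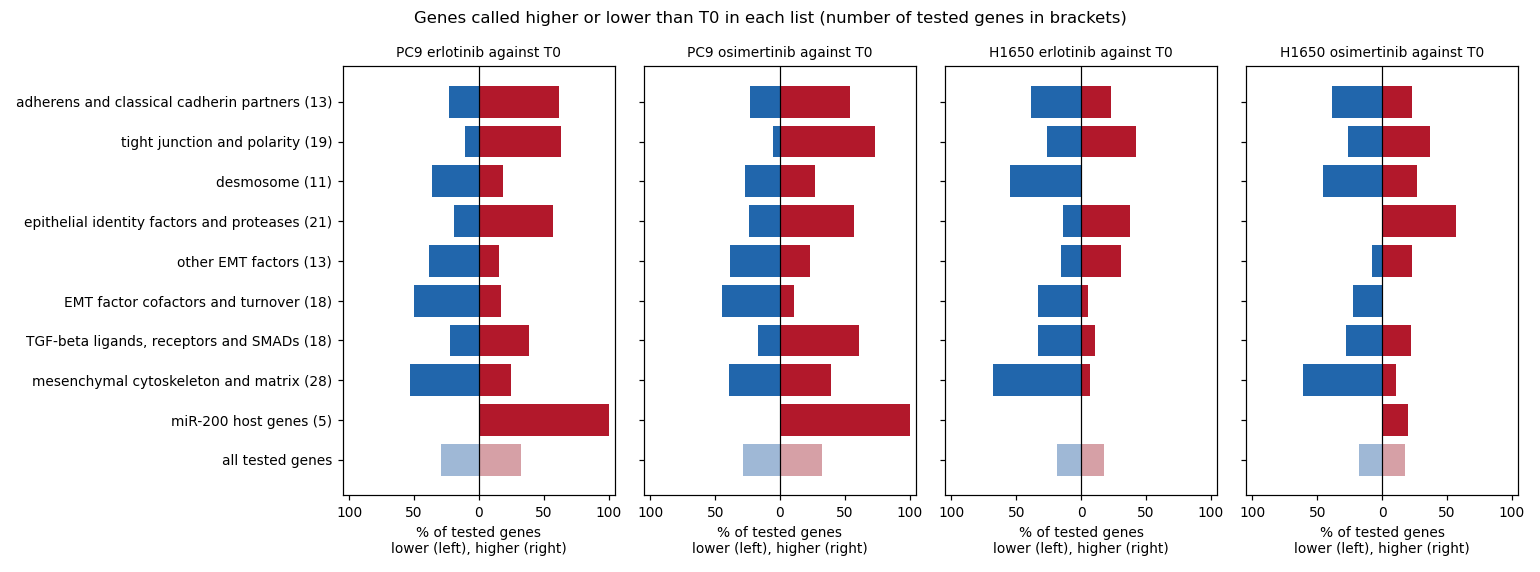
Share of the tested genes of each list (rows, number of tested genes in brackets) called higher (right, red) or lower (left, blue) than T0 in 4 comparisons, with all tested genes in pale colours. Tight junction genes are mostly higher in PC9, and 19 and 17 of the 28 mesenchymal genes are lower in H1650.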

How the data were processed

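Libraries of PC9 and H1650 cells were analysed in 6 groups of 2. The authors processed the reads with DolphinNext and deposited raw counts of reads per gene from featureCounts, without normalization. The submitters' processing notes name GRCh38 and DESeq2, while the aligner, annotation and strandedness are not given in the sources used here. The study's supplement describes the replicates as biological, while the labels do not say whether they were separate cultures, so p-values measure the spread between these libraries.

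Genes were filtered by group (19108 kept of 60591) and fitted in R 4.3.3 with edgeR 4.0.16 using TMM factors (0.941 to 1.08) and 6 group terms on 12 libraries. Quasi-likelihood tests were adjusted over all tested genes by Benjamini-Hochberg, and adjusted p under 0.05 was called. The script was tested on simulated data. Counting intervals at 95% are exact binomial intervals of summed reads.

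The members and lists were chosen with earlier results of these data known. The text names all members and examples from the 2 highest and 2 lowest mean changes of each list among genes called with both drugs in a line with a mean of at least 5 CPM. PALS1 of the tight junction list was matched as MPP5, its symbol in the table, by Ensembl gene identifier after the files were opened. Of the list genes, 11 had too few reads. Alternatives were DESeq2 1.42.0, RLE normalization, other filters, a fit per line, a replicate block, leaving out each library and another gene length. Some genes that the naming rule picks are not reported here.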

Additional observations from a re-analysis of the deposited data

Results flagged for a closer look

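Each value here is a change after 36 h of drug in H1650 minus the change in PC9, on the log2 scale, and is listed because edgeR's quasi-likelihood test of that difference passed an adjusted p of 0.05. With erlotinib the differences were -0.42 for CDH1, -1.91 for CDH2, 0.66 for VIM, -1.56 for FN1, 2.72 for SNAI1, -4.23 for SNAI2, -1.66 for TWIST1 and 1.19 for EPCAM. With osimertinib they were -0.30 for CDH1, -1.68 for CDH2, -2.64 for FN1, 3.11 for ZEB1, 2.14 for SNAI1, -3.94 for SNAI2, -1.55 for TWIST1 and 1.49 for EPCAM. The SNAI2 and ZEB1 values rest on at most 19 and 8 reads per H1650 library. ZEB1 passed the filter on low counts only with its reads in untreated PC9, which favoured a difference of this sign. The ZEB1 difference (adjusted p = 0.0218) was lost under DESeq2 (adjusted p = 0.0693) and without any 1 of PC9 T0 replicate 1, either PC9 osimertinib replicate, H1650 T0 replicate 1 or H1650 osimertinib replicate 1 (adjusted p from 0.0534 to 0.270). The CDH1 difference with osimertinib (adjusted p = 0.0158) was lost without the filter on low counts (-0.22, adjusted p = 0.0720). That call was also lost without PC9 T0 replicate 1, PC9 osimertinib replicate 2, H1650 T0 replicate 1 or H1650 osimertinib replicate 2, where the difference was -0.22 to -0.29.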

How the results depend on the processing

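Of 1751 values of the 10 genes under the alternatives, 1660 kept their direction and side of the threshold, 53 lost the call, 30 gained one and 8 reversed, and 3 further values had no adjusted p in DESeq2. All 8 reversals were of uncalled changes with a library left out. Over the libraries left out, CDH2 with erlotinib in PC9 ranged from -0.18 (without PC9 T0 replicate 1) to 0.10 (without PC9 T0 replicate 2), and was 0.04 without PC9 erlotinib replicate 1. TWIST1 with erlotinib in H1650 ranged from -0.13 to 0.0095 (without erlotinib replicate 2). ZEB1 with osimertinib in H1650 ranged from -0.62 (without osimertinib replicate 1) to 1.39, and was -0.27 without T0 replicate 1. ZEB1 in H1650 against PC9 with osimertinib ranged from -0.40 (without H1650 osimertinib replicate 1) to 1.08. Between the drugs in PC9, ZEB2 ranged from -0.24 (without erlotinib replicate 1) to 0.42 and EPCAM from -0.022 (without osimertinib replicate 2) to 0.15. The CDH2 call with osimertinib in PC9 was lost without PC9 T0 replicate 1 (adjusted p = 0.391), PC9 osimertinib replicate 2 (0.283), either erlotinib replicate of either line, H1650 T0 replicate 1 or either H1650 osimertinib replicate (up to 0.0559 for these).

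Under at least 10 counts in every library, CDH2, ZEB1, ZEB2, SNAI1 and SNAI2 were not tested. The members called were then 5 in PC9 with osimertinib, 3 in H1650 with erlotinib, 5 and 4 in the difference between the lines with erlotinib and osimertinib, and 5, 5 and 4 between H1650 and PC9 at T0, with erlotinib and with osimertinib. Between the drugs in PC9, 5 members were called instead of 3 in a fit per cell line.

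Correlations of the deviations between replicates ran from -0.0671 to 0.0947 over 15 pairs of groups, with 0 over 0.1. They were taken over all tested genes, and whether the replicate numbers pair the samples was not settled by them. With a replicate block no member lost a call and 5 gained one, namely CDH1 in H1650 with erlotinib (adjusted p = 0.00622), SNAI1 in H1650 with osimertinib (0.0215), and, between the drugs, FN1 in H1650 (0.0130) and CDH2 (0.0293) and SNAI2 (0.0176) in PC9. So 5 instead of 3 members were called between the drugs in PC9, and all genes called between the drugs in H1650 rose from 1716 to 2779. That count fell to 1121 without H1650 erlotinib replicate 2 and to 838 without H1650 osimertinib replicate 1.

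With each library left out, the members called ranged from 6 to 7 in PC9 with erlotinib, 8 to 9 with osimertinib, 4 to 6 in H1650 with erlotinib and 4 to 7 with osimertinib. They ranged from 7 to 8 and 6 to 8 in the differences between the lines, 2 to 4 and 3 to 4 between the drugs in PC9 and H1650, and 9 to 10, 8 to 10 and 8 to 9 between H1650 and PC9 at T0, with erlotinib and with osimertinib. An arm left with 1 library was assumed to vary like the other groups. The few reads of ZEB1 and ZEB2, and of SNAI2 in H1650, limit those values most.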
